A study of Mus musculus with 4 samples.

Results

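The Schlafen genes were read in the skin of mice, with 7 members found by their symbols among the 25571 genes of 1 deposited table: Slfn1, Slfn2, Slfn3, Slfn4, Slfn5, Slfn8 and Slfn9. They were chosen by the measured FPKM of PRP-MNs and NC, because Slfn4 was the gene that stood farthest above NC in PRP-MNs and the others are its relatives and neighbours on chromosome 11. The 4 groups were labelled PRP-MNs, PRP, MNs and NC, each with 1 skin library, so no group had replicates, no error between animals can be given and no p-value was computed. PRP is platelet-rich plasma, a concentrate of blood platelets, and MNs are microneedles, patches of tiny needles used to bring a substance through the skin surface. By its title the study is about hair regrowth under platelet-rich plasma given by microneedles. NC is not spelled out in the labels and was used as the reference. Strain, age, sex, dose, time of harvest and the number of animals behind a library are not stated in the sources used here.

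Schlafen proteins share an N-terminal core that binds and, in some members, cuts RNA. The mouse family is usually sorted by length into short forms (Slfn1 and Slfn2), intermediate forms (Slfn3 and Slfn4) and long forms with a C-terminal helicase-like part (Slfn5, Slfn8 and Slfn9). The genes are known for their expression in haematopoietic cells, where several are induced by type I interferon and by microbial products, and for effects on the growth and quiescence of T cells and monocytes. The short and intermediate mouse forms have no simple counterpart in humans, whose best studied member, SLFN11, blocks the translation of viral proteins. Interferon acts through the receptor chains Ifnar1 and Ifnar2 and factors that include Stat2 and Irf9, which bind response elements in the promoters of their targets.

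The values were FPKM, which scale fragments to the depth of the library and the length of the transcript, so levels of different genes may be set side by side. From steps in the low values, depth was estimated at 17.2 M fragments (PRP-MNs), 15.9 M (PRP), 18.6 M (MNs) and 19.3 M (NC). Keratinocyte markers were present in every library, and Krt10, a keratin of the differentiating epidermis, stood at 475 FPKM in PRP-MNs skin, 3428 FPKM in PRP skin, 1079 FPKM in MNs skin and 6056 FPKM in NC skin. A gene entered a comparison if either library had it at 1 FPKM or more, and its difference was the log2 ratio of FPKM + 1. Differences that reached 2-fold on this scale were counted. This scale understates the differences of low genes. In whole skin, more cells of a type and more RNA per cell cannot be told apart.

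The cluster spanned 264 kb of chromosome 11, from 82951349 to 83215154 on GRCm38, in the order Slfn5, Slfn9, Slfn8, Slfn2, Slfn1, Slfn4 and Slfn3. Slfn8 and Slfn9 lie on the minus strand and the other 5 on the plus strand. The 250 bases before the RefSeq start of each gene were searched on both strands, and all 7 genes matched a promoter entry. The stretches below hold the matches that group the members, on the gene's own strand, 5′ to 3′, with the matches in capitals. In Slfn1, Slfn2, Slfn3 and Slfn4 the capitals mark ACTTCCTGG, the longest word present in at least 4 of the 7 promoters, which reads GGAA, the core bound by ETS factors, on its other strand. In Slfn4 the capitals also mark a TATA box, TATAAA. In Slfn5, Slfn8 and Slfn9 they mark the core of an interferon-stimulated response element, a pair of GAAA words with 2 bases between them, or its reverse complement.
Slfn4, chr11:83174936-83175185, plus strand, the member with the highest level in PRP-MNs: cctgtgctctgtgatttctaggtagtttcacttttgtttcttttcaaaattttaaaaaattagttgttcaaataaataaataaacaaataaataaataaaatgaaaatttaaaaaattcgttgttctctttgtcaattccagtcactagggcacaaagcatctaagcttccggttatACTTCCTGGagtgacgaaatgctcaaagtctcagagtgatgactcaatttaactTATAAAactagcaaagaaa
Slfn3, chr11:83191230-83191329, plus strand: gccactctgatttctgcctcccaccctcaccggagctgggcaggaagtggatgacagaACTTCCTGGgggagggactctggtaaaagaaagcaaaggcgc
Slfn1, chr11:83116720-83116819, plus strand: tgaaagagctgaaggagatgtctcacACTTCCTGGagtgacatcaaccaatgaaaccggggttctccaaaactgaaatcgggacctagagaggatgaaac
Slfn2, chr11:83065012-83065111, plus strand: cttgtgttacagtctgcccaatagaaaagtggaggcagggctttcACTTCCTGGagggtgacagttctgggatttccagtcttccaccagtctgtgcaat
Slfn5, chr11:82951937-82951966, plus strand: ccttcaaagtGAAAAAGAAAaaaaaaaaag
Slfn8, chr11:83020811-83020910, minus strand: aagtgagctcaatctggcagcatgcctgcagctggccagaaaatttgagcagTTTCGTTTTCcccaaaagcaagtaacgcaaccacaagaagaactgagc
Slfn9, chr11:82991831-82991930, minus strand: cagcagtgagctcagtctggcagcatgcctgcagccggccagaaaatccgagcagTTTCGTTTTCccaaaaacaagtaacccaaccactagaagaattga

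The sequences and coordinates are RefSeq's on GRCm38.p6. The word ACTTCCTGG lay between bases -74 and -34, counted from the start, in its 4 genes and was present in 0.701% of 32817 mouse promoters of the same length. It was found in these promoters themselves, so its presence in them is a description. The interferon element core was present in 3 of the 7 promoters, those of Slfn5, Slfn8 and Slfn9, against 2.97% of all promoters. Counted from the start, it began at base -155 in Slfn5, -48 in Slfn8 and -45 in Slfn9. The RefSeq start of Slfn5 lies downstream of its GENCODE start at 82951349. The Slfn5 stretch is thus inside the GENCODE span of the gene, though in no annotated exon. Its match also runs into a stretch of A bases, where such a core can arise easily. TATAAA was found in Slfn4 alone among the members (12.4% of all promoters), and a PU.1 site core, GAGGAAG, in Slfn9 alone (10.6%). The interferon gamma-activated site TTCNNNGAA (7.01% of all promoters) and an NF-kB site, GGGAA and TTCC with 1 base between them (0.283%), had no match in the 7 windows. No matches of different motifs overlapped. The members are copies of one another by descent, and the long forms Slfn8 and Slfn9 carry the same match, TTTCGTTTTC.

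The coding sequences showed how close the copies are. Slfn1 and Slfn2 encode 337 and 378 amino acids, Slfn3 and Slfn4 640 and 602, and Slfn5, Slfn8 and Slfn9 884, 910 and 910. Slfn8 and Slfn9 were identical at 92.7% of aligned coding bases, and Slfn3 and Slfn4 at 92.3%. The next closest pair, Slfn1 and Slfn4, was identical at 75.3%, and Slfn5 was at most 63.8% identical to any other member (Slfn9). Exact stretches of 50 bases shared with another Schlafen gene made up 14.6% of those in Slfn8 transcripts, 11.2% in Slfn9, 8.15% in Slfn4, 7.39% in Slfn3, 4.27% in Slfn2, 0.606% in Slfn1 and none in Slfn5. How the authors assigned fragments that match several genes is not stated in the sources used here. The split of signal between Slfn8 and Slfn9 and between Slfn3 and Slfn4 is uncertain. Strand handling is not stated either, and Slfn5 overlaps the antisense gene Slfn5os, which was not analysed here.

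Slfn4, an intermediate form known from monocytes and macrophages and from myeloid-derived suppressor cells of the inflamed mouse stomach, stood at 663 FPKM in PRP-MNs skin, 49.3 FPKM in PRP skin, 10.2 FPKM in MNs skin and 0.861 FPKM in NC skin. It was high in PRP-MNs, where it ranked 74 among all genes by level, and lowest in NC, where it ranked 13025. Its log2 difference was 8.48 for PRP-MNs against NC, the largest of all 13981 genes, which is the value that chose the family. It was 4.76 for PRP against NC, rank 4 of 13533 genes, and 2.60 for MNs against NC, rank 190 of 13925. Between treated libraries it was 3.72 for PRP-MNs against PRP, 5.88 for PRP-MNs against MNs and 2.16 for PRP against MNs. Taking the longest transcript, the NC value corresponded to about 66 fragments and a counting interval of 0.666 to 1.09 FPKM (exact Poisson, 95%), which covers counting error only.

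Slfn3, the close copy of Slfn4 and studied mostly in the gut epithelium of rodents and in T cells, was the lowest member in every library. It stood at 7.09 FPKM in PRP-MNs skin, 1.65 FPKM in PRP skin, 2.11 FPKM in MNs skin and 0.146 FPKM in NC skin. The NC value corresponded to about 8 fragments, with a counting interval of 0.0628 to 0.287 FPKM, so its ratios to NC are imprecise. Its log2 differences from NC were 2.82 in PRP-MNs skin, 1.21 in PRP skin and 1.44 in MNs skin. Slfn3 reached the filter of 1 FPKM only through the treated library in each of these comparisons, as did Slfn4, so neither could have been counted as lower. The ratio of Slfn4 to Slfn3 was 93.5 in PRP-MNs skin, 29.9 in PRP skin, 4.86 in MNs skin and 5.91 in NC skin.

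Slfn1, the short form first described as a gene whose forced expression stops the growth of thymocytes, stood at 106 FPKM in PRP-MNs skin, 26.8 FPKM in PRP skin, 8.39 FPKM in MNs skin and 1.07 FPKM in NC skin. The order of the libraries was that of Slfn4. Its log2 differences from NC were 5.69 in PRP-MNs skin, 3.75 in PRP skin and 2.18 in MNs skin, and in PRP it ranked 11 of 13533 genes. Slfn2, the short form whose loss in elektra mice leaves T cells and monocytes unable to stay quiescent, stood at 206 FPKM in PRP-MNs skin, 44.9 FPKM in PRP skin, 32.3 FPKM in MNs skin and 6.82 FPKM in NC skin. It was the highest member in NC and the second highest in each treated library. Its log2 differences from NC were 4.73 in PRP-MNs skin, 2.55 in PRP skin and 2.09 in MNs skin.

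Slfn5, a long form induced by interferon in several cell types, stood at 113 FPKM in PRP-MNs skin, 31.3 FPKM in PRP skin, 33.4 FPKM in MNs skin and 5.10 FPKM in NC skin. PRP and MNs lay close together, with a log2 difference of -0.09 for PRP against MNs. From NC it differed by 4.22 in PRP-MNs skin, 2.40 in PRP skin and 2.50 in MNs skin. Slfn8, a long form of lymphoid and myeloid cells, reached 60.0 FPKM in PRP-MNs skin, 8.87 FPKM in PRP skin, 4.71 FPKM in MNs skin and 1.34 FPKM in NC skin. It differed from NC by 4.71 in PRP-MNs skin, 2.08 in PRP skin and 1.29 in MNs skin. Slfn9, whose coding sequence is nearest to that of Slfn8, stood at 20.9 FPKM in PRP-MNs skin, 7.14 FPKM in PRP skin, 6.19 FPKM in MNs skin and 4.52 FPKM in NC skin. It varied least among the 7 genes against NC, by 1.99 in PRP-MNs skin, 0.56 in PRP skin and 0.38 in MNs skin. The ratio of Slfn8 to Slfn9 was 2.87 in PRP-MNs skin, 1.24 in PRP skin, 0.760 in MNs skin and 0.297 in NC skin, so the higher gene of the pair differed between libraries.

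**Figure D1:**
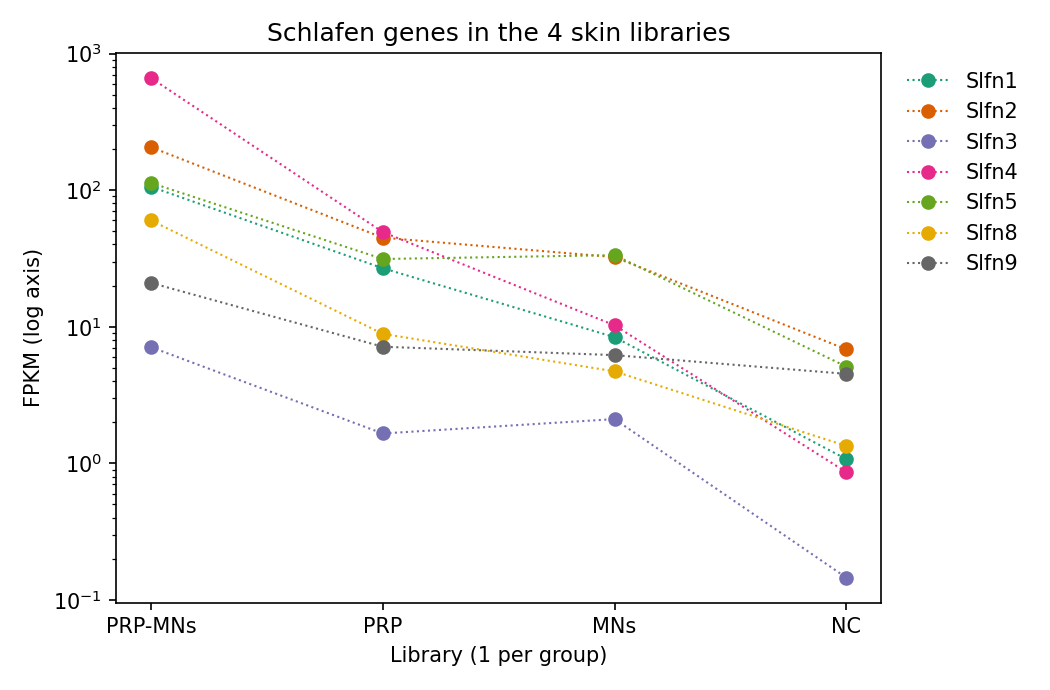
FPKM of each Schlafen gene (log axis) in the 4 libraries, 1 point per library, with dotted lines only to guide the eye. All 7 genes were highest in PRP-MNs and lowest in NC, with Slfn4 at 663 FPKM in PRP-MNs skin and 0.861 FPKM in NC skin.

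The make-up of the family differed between libraries. The FPKM of the 7 genes summed to 1176 in PRP-MNs skin, 170 in PRP skin, 97.4 in MNs skin and 19.9 in NC skin. Slfn4 made up 56.3% of this sum in PRP-MNs, 29.0% in PRP skin, 10.5% in MNs skin and 4.33% in NC skin. The shares of Slfn2 and Slfn5 were lowest in PRP-MNs. Slfn2 made up 17.6% in PRP-MNs skin, 26.4% in PRP skin, 33.2% in MNs skin and 34.4% in NC skin, and Slfn5 made up 9.61% in PRP-MNs skin, 18.4% in PRP skin, 34.3% in MNs skin and 25.7% in NC skin. Slfn9 made up 1.78% in PRP-MNs skin and 22.7% in NC skin. Without Slfn4 the other 6 genes summed to 513 FPKM in PRP-MNs skin, 121 FPKM in PRP skin, 87.2 FPKM in MNs skin and 19.0 FPKM in NC skin, a 27.0-fold ratio of PRP-MNs to NC in place of 59.2-fold with it. The high family sum of PRP-MNs thus did not rest on Slfn4 alone.

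**Figure D2:**
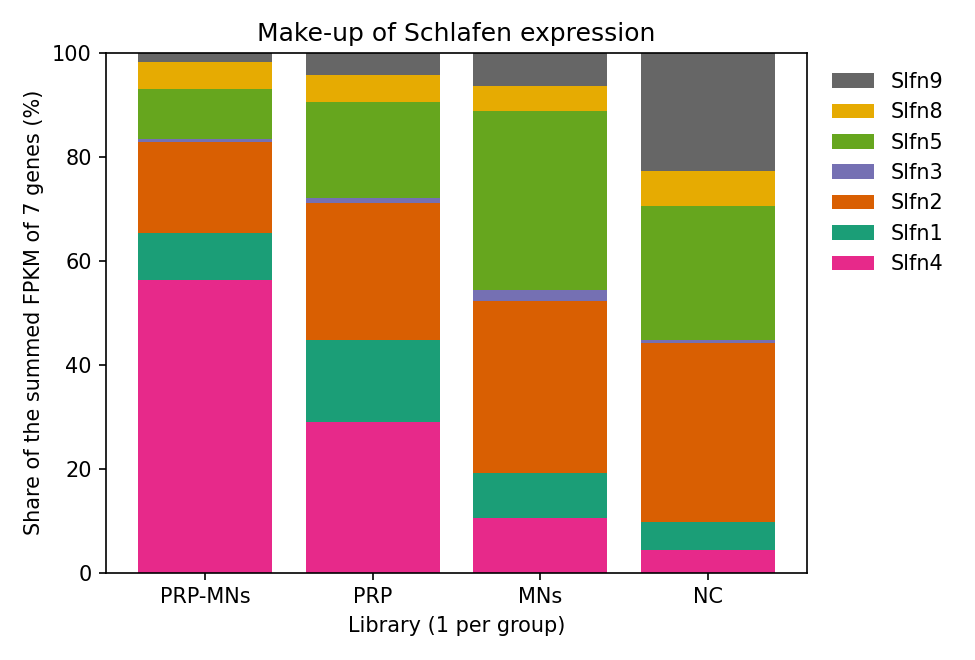
Share (%) of each gene in the summed FPKM of the 7 Schlafen genes, 1 bar per library. Slfn4, at the bottom, takes 56.3% in PRP-MNs skin and 4.33% in NC skin.

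By level the order was Slfn4, Slfn2, Slfn5, Slfn1, Slfn8, Slfn9 and Slfn3 in both PRP-MNs and PRP. In MNs it was Slfn5, Slfn2, Slfn4, Slfn1, Slfn9, Slfn8 and Slfn3, and in NC it was Slfn2, Slfn5, Slfn9, Slfn8, Slfn1, Slfn4 and Slfn3. With 1 library per group the spread around these levels is unknown, and only counting error could be set. In MNs the counting intervals of Slfn5 (32.4 to 34.5 FPKM) and Slfn2 (30.4 to 34.4 FPKM) overlapped. In NC those of Slfn8 (1.09 to 1.62 FPKM), Slfn1 (0.763 to 1.47 FPKM) and Slfn4 (0.666 to 1.09 FPKM) overlapped from one to the next. The drop of Slfn4 to the place before last in NC therefore rests on genes that are close together.

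PRP-MNs was set against NC to ask how skin given the combined treatment differed from the reference. All 7 members were at least 2-fold higher, where 17.6% of all genes tested were, and none was at least 2-fold lower, where 11.5% were. This contrast chose the family, so the count is a description. The median log2 difference was 4.71, with a range of 1.99 to 8.48, against a median of 0.14 over all genes tested. In PRP against NC, 6 of 7 were at least 2-fold higher, where 7.78% of all genes tested were, and none was at least 2-fold lower, where 1.46% were. The median was 2.40, against 0.04 over all genes tested. In MNs against NC, again 6 of 7 were at least 2-fold higher, where 15.7% of all genes tested were, and none was at least 2-fold lower, where 7.12% were. The median was 2.09, against 0.16 over all genes tested, and centred on that median 1729 genes were higher and 1261 lower in place of 2188 and 991. Slfn9 was the member within 2-fold in both comparisons. The 3 comparisons share the NC library, so a low value of that library alone would raise a member in each of them. NC values entered the choice of the family, so all 3 counts are descriptions. Slfn3 and Slfn4 reached the filter of 1 FPKM only through the treated library in each, so neither could have been counted as lower. The other 5 members were at 1 FPKM or more in both libraries.

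PRP-MNs was also set against each single treatment, comparisons in which NC has no part. Each of the 7 members stood at least 2-fold above PRP in PRP-MNs, where 9.54% of all genes tested were (7.5% were lower), with a median of 1.94 against 0.08 over all genes tested. With a pseudocount of 5 FPKM the count was 6, without Slfn3 (0.86). Over all genes 1323 were higher and 1039 lower, and centred on the median 1176 and 1230. Slfn4 (3.72), Slfn8 (2.63) and Slfn2 (2.18) differed most and Slfn9 (1.43) least. All 7 were also at least 2-fold higher in PRP-MNs than in MNs, where 7.16% of all genes tested were (7.39% were lower), with a median of 2.64 against -0.02 over all genes tested. The largest differences there were those of Slfn4 (5.88), Slfn1 (3.51) and Slfn8 (3.42), and the smallest that of Slfn3 (1.38). Both comparisons share the PRP-MNs library whose values chose the family.

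PRP against MNs uses neither PRP-MNs nor NC. Here 2 of 7 members, Slfn4 (2.16) and Slfn1 (1.57), were at least 2-fold higher in PRP, where 4.62% of all genes tested were, and none was at least 2-fold lower, where 5.99% were. Slfn8 (0.79), Slfn2 (0.46), Slfn9 (0.18), Slfn5 (-0.09) and Slfn3 (-0.23) lay within 2-fold. The member median was 0.46, against -0.10 over all genes tested. Over all genes 640 were higher and 829 lower in PRP, and 513 and 1092 after rescaling every library to the same sum. Centred on the median of all genes the balance turned, with 781 higher and 681 lower.

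If NC is taken as given neither treatment, which the labels do not state, the groups cross PRP (given or not) with MNs (given or not). The step for each treatment can then be read on 2 pairs of libraries that share none. Whether PRP was given alike in PRP and PRP-MNs is not stated in the sources used here. Where both libraries had MNs (PRP-MNs minus MNs), the difference with PRP was 5.88 in Slfn4, 3.51 in Slfn1, 3.42 in Slfn8, 2.64 in Slfn2, 1.73 in Slfn5, 1.61 in Slfn9 and 1.38 in Slfn3. Where neither had MNs (PRP minus NC), it was 4.76 in Slfn4, 3.75 in Slfn1, 2.08 in Slfn8, 2.55 in Slfn2, 2.40 in Slfn5, 0.56 in Slfn9 and 1.21 in Slfn3. The difference with MNs where both libraries had PRP (PRP-MNs minus PRP) was 3.72 in Slfn4, 2.63 in Slfn8 and 1.82 in Slfn5. Where neither had PRP (MNs minus NC), it was 2.60 in Slfn4, 1.29 in Slfn8 and 2.50 in Slfn5. All 7 members were higher at every step, as were 22.7% of 14475 genes. Each step includes PRP-MNs or NC, whose values chose the family, so this count is a description. Slfn9 was within 2-fold in PRP minus NC (0.56) and in MNs minus NC (0.38). The combined difference from NC exceeded the sum of the single differences by at least 1 on the log2 scale in Slfn8 (1.34), Slfn4 (1.13) and Slfn9 (1.05), where 4.74% of 14475 genes did. PRP-MNs and NC, whose values chose the family, enter this quantity, so it is a description. It differed from the sum by -0.68 in Slfn5, -0.24 in Slfn1, 0.09 in Slfn2 and 0.17 in Slfn3. These values depended on the pseudocount. With 0.1 FPKM in place of 1, Slfn4 stood at 0.32, Slfn2 at -0.03 and Slfn3 at -1.13, and with 5 FPKM Slfn9 stood at 0.86 and Slfn1 at 0.66. With libraries rescaled to the same sum Slfn9 stood at 0.99. Slfn8 stayed at 1 or more and Slfn5 below 0 in all 4 settings tried. With 1 library per group, none of these departures from additivity could be tested.

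**Figure D3:**
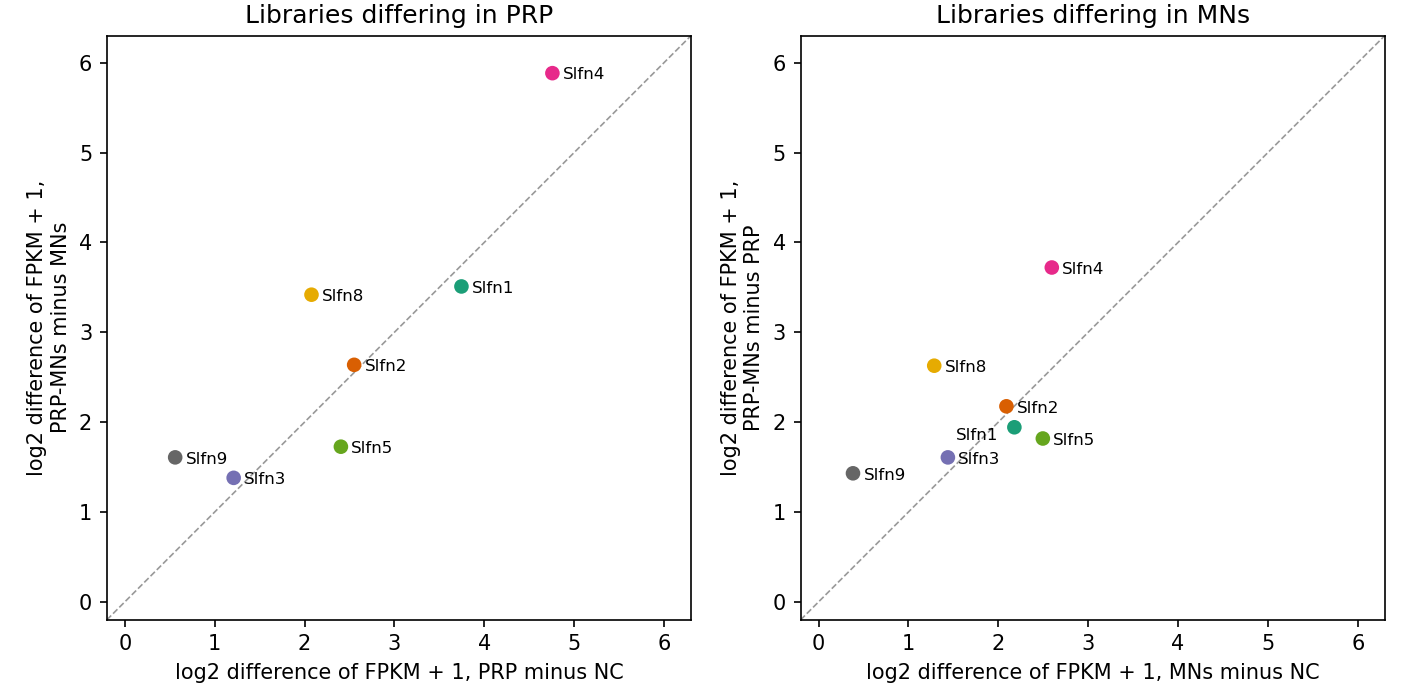
Log2 difference of FPKM + 1 for each Schlafen gene between libraries that differ in PRP (left) and in MNs (right), with the other treatment present (vertical axis) against absent (horizontal axis). The dashed line marks equal differences, and Slfn4, Slfn8 and Slfn9 lie at least 1 above it in both panels while Slfn5 lies below it.

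Profiles over the 4 libraries were compared as the root mean square distance between log2(FPKM + 1) values centred on each gene's mean, over 10369 genes that reached 5 FPKM in at least 1 library. Among the members, Slfn2 was nearest to Slfn5 (0.33) and to Slfn8 (0.33), Slfn3 to Slfn9 (0.39), and the farthest pair was Slfn4 and Slfn9 (2.40). This scale understates the differences of Slfn3, which was low. Its FPKM ratio of PRP-MNs to NC was 48.7, against 4.64 for Slfn9, so their nearness depends on the scale. The closest coding pairs were not the closest in profile, with distances of 0.99 for Slfn8 and Slfn9 and 2.19 for Slfn3 and Slfn4. Outside the family, the genes nearest to Slfn4 were the monocyte gene Ly6c2 (0.51), Ms4a4c (0.64), the stress-responsive gene Ankrd1 (0.71), and the interferon-stimulated genes Rsad2 (0.78) and Isg15 (0.81). Nearest to Slfn1 were Zbp1, a sensor of left-handed nucleic acids (0.21), the Fc receptor Fcgr4 (0.23), Rtp4 (0.27), Ifit3 (0.29) and Ifi209 (0.29). Nearest to Slfn8 were the antiviral oligoadenylate synthetases Oas3 (0.18) and Oas2 (0.20), then Trim30b (0.21), Cmpk2 (0.21) and A530064D06Rik (0.22).

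Slfn2 lay nearest to Trim30a (0.06), Mefv, the pyrin gene (0.13), Cd180 (0.13), Oas1a (0.15) and Sp100 (0.16). Slfn5 lay nearest to the chemokine Ccl9 (0.05), then Lrrc25 (0.08), the inhibitory receptor Pirb (0.10), Evi2 (0.10) and the Src family kinase Lyn (0.12). Ccl9 stood at 243 FPKM in PRP-MNs skin, 72.4 FPKM in PRP skin, 76.5 FPKM in MNs skin and 11.9 FPKM in NC skin. Slfn3 lay nearest to Ms4a14 (0.02), the kinase Syk (0.05), Pstpip1 (0.06), Efhd2 (0.06) and Arhgap30 (0.06). Slfn9 lay nearest to Gm6377 (0.03), Resf1 (0.06), Fnip2 (0.09), Coro2a (0.09) and Nkain1 (0.10). With 4 points per profile many genes resemble any given one, and low members have flat profiles on this scale.

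The genes around the cluster were read because its members are neighbours. Of 24 protein-coding genes without a Schlafen name within 500 kb of either end, 17 could be compared between PRP-MNs and NC. Over all genes tested in this comparison, 17.6% were at least 2-fold higher and 11.5% lower, with a median of 0.14. On the side of Slfn5, 1 of 6 was at least 2-fold higher, the muscle chaperone gene Unc45b (12.0 FPKM in PRP-MNs skin and 5.34 FPKM in NC skin), and the median was 0.05. Lig3, Rad51d and Nle1 on that side differed by 0.00, 0.06 and 0.26. On the side of Slfn3, 7 of 11 were at least 2-fold higher and 2 lower, with a median of 1.94. Those that differed most were the chemokines Ccl4 (6.64), Ccl3 (6.63), Ccl9 (4.24), Ccl6 (3.23) and Ccl5 (3.17), which begin between 311 and 447 kb beyond the cluster. They were followed by Wfdc17 (1.94). Between the cluster and these chemokines, Taf15 differed by -0.19, Mmp28 by -1.23, Ap2b1 by 1.26 and 1700020L24Rik by -1.41. Slfn14 of the same chromosome and Slfnl1 on chromosome 4 were listed at 0 in every library, and Slfn10-ps was not analysed here.

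**Figure D4:**
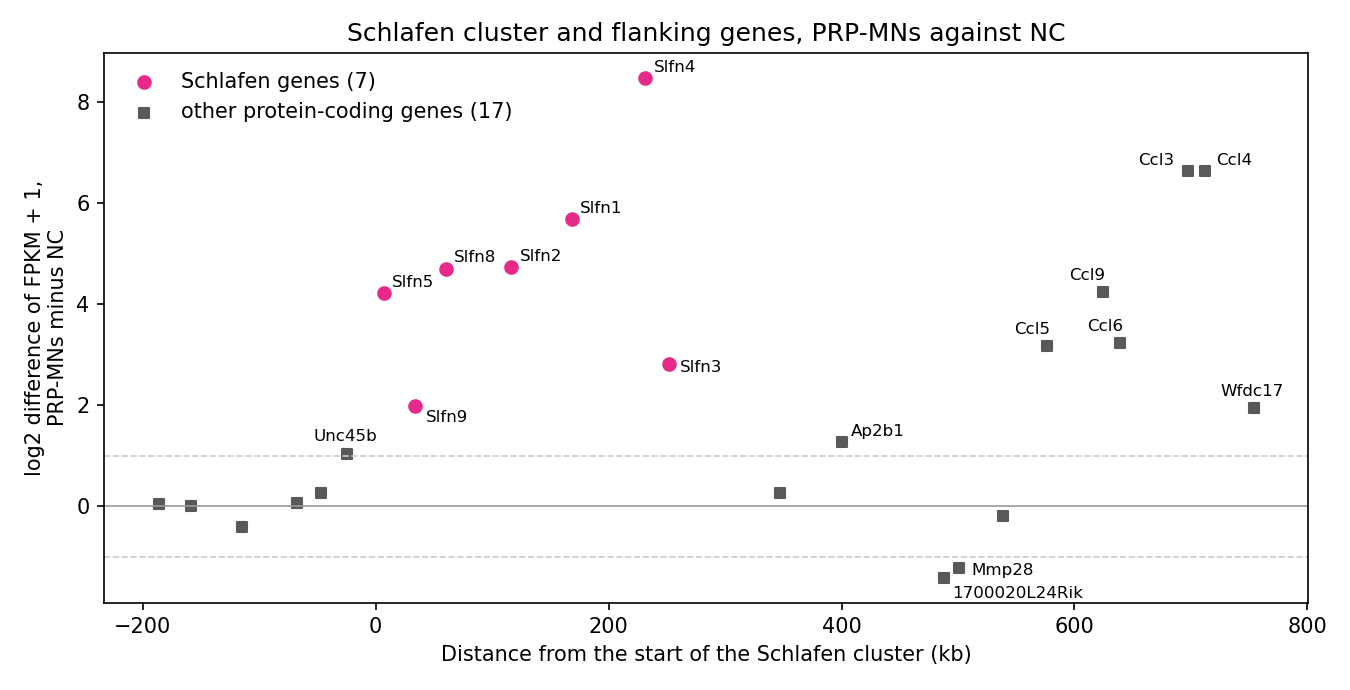
Log2 difference of FPKM + 1, PRP-MNs minus NC, of the 7 Schlafen genes (circles) and 17 other protein-coding genes (squares) by distance in kb from the start of the cluster on chromosome 11. Dashed lines mark 2-fold. Genes before the cluster lie near 0 except Unc45b, which lies just past the upper dashed line, and the chemokines Ccl3 and Ccl4, beyond its far end, lie at 6.63 and 6.64.

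Interferon genes were read beside the members because interferon induces several of them. These lists and those that follow were written with earlier results of these data known, so their counts are descriptions. Of all genes tested, 17.6% stood at least 2-fold above NC in PRP-MNs, 7.78% in PRP and 15.7% in MNs. Every one of 22 interferon-stimulated genes stood at least 2-fold above NC in PRP-MNs (median 4.92), led by Rsad2 (6.86), Isg15 (6.21), Ifit1 (6.11) and Ifit3 (5.92). All 22 were also higher by at least 2-fold in PRP (median 2.53), and 14 of 20 tested in MNs (median 1.56). Summed, the list stood above NC by 45.4-fold in PRP-MNs, 9.66-fold in PRP and 3.28-fold in MNs. The 7 Schlafen genes summed stood above NC by 59.2-fold in PRP-MNs, 8.56-fold in PRP and 4.90-fold in MNs. Without Slfn4, whose value chose the family, the sum stood above NC by 27.0-fold in PRP-MNs, 6.35-fold in PRP and 4.59-fold in MNs. Of the 16 receptors and transducers, 12 stood at least 2-fold above NC in PRP-MNs (median 2.004), with Stat2 at 59.5 FPKM in PRP-MNs skin and 4.18 FPKM in NC skin and Irf1 at 53.2 FPKM in PRP-MNs skin and 6.02 FPKM in NC skin. In PRP 5 of 15 and in MNs 5 of 16 were at least 2-fold higher. The 8 listed genes of interferons themselves were at 1.54 FPKM or less in every library, and interferon genes outside this list were not read. Ifnb1 stood at 0.985 FPKM in PRP-MNs skin and was listed at 0 in the other 3 libraries, and Ifnk, the keratinocyte interferon, stood at 0.427 FPKM in PRP-MNs skin, 1.54 FPKM in PRP skin and 1.30 FPKM in NC skin and was listed at 0 in MNs skin.

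Of 13 genes of the toll-like receptor pathway, which senses microbial products, 11 stood at least 2-fold above NC in PRP-MNs, with a median of 2.99. The co-receptor Cd14 stood at 201 FPKM in PRP-MNs skin and 5.04 FPKM in NC skin, and Tlr13 at 39.1 FPKM in PRP-MNs skin and 0.428 FPKM in NC skin. In PRP 9 and in MNs 8 of the 13 were at least 2-fold higher, with medians of 1.47 in PRP and 1.49 in MNs. Over all genes tested the shares at least 2-fold above NC were 17.6% in PRP-MNs, 7.78% in PRP and 15.7% in MNs.

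Markers of the cells that express Schlafen genes also differed between the libraries. The 12 genes of leukocytes in general summed to 1849 FPKM in PRP-MNs skin, 646 FPKM in PRP skin, 690 FPKM in MNs skin and 224 FPKM in NC skin. Those at least 2-fold above NC numbered 11 in PRP-MNs, 11 in PRP and 10 in MNs. The shares over all genes tested were 17.6% in PRP-MNs, 7.78% in PRP and 15.7% in MNs. The 10 monocyte genes summed to 1994 FPKM in PRP-MNs skin, 603 FPKM in PRP skin, 357 FPKM in MNs skin and 77.3 FPKM in NC skin, with Ly6c2 at 651 FPKM in PRP-MNs skin and 2.81 FPKM in NC skin and Chil3 at 274 FPKM in PRP-MNs skin and 0.614 FPKM in NC skin. The 10 macrophage genes summed to 2140 FPKM in PRP-MNs skin, 1042 FPKM in PRP skin, 1250 FPKM in MNs skin and 322 FPKM in NC skin. The 12 neutrophil genes summed to 1021 FPKM in PRP-MNs skin, 407 FPKM in PRP skin, 183 FPKM in MNs skin and 235 FPKM in NC skin, of which most was S100a8 and S100a9, which keratinocytes also express. Of the 12, 1 was listed at 0 in PRP-MNs skin, 3 in PRP skin, 1 in MNs skin and 3 in NC skin.

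Summed, the T cell genes did not share this direction. Their 10 members summed to 13.1 FPKM in PRP-MNs skin, 21.9 FPKM in PRP skin, 10.6 FPKM in MNs skin and 32.7 FPKM in NC skin. In NC the largest part of this sum was Cd3g, at 17.1 FPKM, against 3.91 FPKM in PRP-MNs skin. None of the 7 tested was at least 2-fold higher in PRP-MNs, where 17.6% of all genes tested were, and 2 were lower, where 11.5% were. In MNs 1 of 8 tested was at least 2-fold higher, where 15.7% of all genes tested were, and 2 were lower, where 7.12% were. The 7 NK cell genes summed to 29.2 FPKM in PRP-MNs skin, 16.0 FPKM in PRP skin, 3.23 FPKM in MNs skin and 4.404 FPKM in NC skin. The 5 B cell genes summed to at most 1.96 FPKM in any library (PRP). The 6 platelet genes summed to 294 FPKM in PRP-MNs skin, 75.3 FPKM in PRP skin, 170.0 FPKM in MNs skin and 23.3 FPKM in NC skin, nearly all of it Pf4 and Ppbp. Keratinocyte genes summed to 4103 FPKM in PRP-MNs skin, 13367 FPKM in PRP skin, 8211 FPKM in MNs skin and 19322 FPKM in NC skin. Fibroblast genes summed to 974 FPKM in PRP-MNs skin, 1837 FPKM in PRP skin, 7180 FPKM in MNs skin and 858 FPKM in NC skin, and endothelial genes to 157 FPKM in PRP-MNs skin, 49.2 FPKM in PRP skin, 95.5 FPKM in MNs skin and 16.3 FPKM in NC skin.

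The members were then read relative to these sums. In each treated library Slfn4 stood farther above NC than the monocyte, macrophage, neutrophil and leukocyte sums did. Slfn4 was chosen as the gene with the largest log2 difference in PRP-MNs. No marker could therefore exceed it there, and its lead over the sums in that library is a description. In PRP and MNs single markers were not all below Slfn4 on the log2 scale. Of the 10 monocyte genes 2 exceeded it in PRP (Ms4a4c at 5.12 and Ly6c2 at 5.05, against 4.76 for Slfn4). In MNs 5 did (Chil3, Ccr2, Ms4a4c, Ms4a6c and Itgam), where Chil3 stood at 4.002 against 2.60 for Slfn4. In MNs the macrophage genes Fcgr1, Adgre1 and Mrc1, the leukocyte gene Itgb2 and the neutrophil gene Csf3r exceeded it as well. Its FPKM ratio to NC was 770 in PRP-MNs skin, 57.3 in PRP skin and 11.9 in MNs skin. Divided by the ratio of the monocyte sum this left 29.8 in PRP-MNs skin, 7.34 in PRP skin and 2.57 in MNs skin. Divided by that of the leukocyte sum it left 93.4 in PRP-MNs skin, 19.9 in PRP skin and 3.87 in MNs skin. Such quotients depend on the genes that make up a sum. In NC the largest parts of the monocyte sum were F13a1 (27.6 FPKM), Plac8 (18.9 FPKM) and Csf1r (15.8 FPKM). In PRP-MNs these 3 differed from NC by 0.66, 4.36 and 1.27 on the log2 scale. Ly6c2, Chil3 and Ms4a4c differed by 7.42, 7.41 and 7.27 there, against 8.48 for Slfn4. For Slfn5 the ratios to NC divided by that of the monocyte sum were 0.858 in PRP-MNs skin, 0.786 in PRP skin and 1.42 in MNs skin. For Slfn9 they were 0.180 in PRP-MNs skin, 0.202 in PRP skin and 0.296 in MNs skin, so Slfn9 varied less than the monocyte sum did. On the log2 scale 3 of the 10 monocyte genes differed less from NC than Slfn9 in PRP-MNs, 2 in PRP and 1 in MNs. Divided by the ratio of the macrophage sum, Slfn9 was left at 0.698 in PRP-MNs skin, 0.489 in PRP skin and 0.353 in MNs skin. Divided by that of the neutrophil sum, it was left at 1.07 in PRP-MNs skin, 0.912 in PRP skin and 1.76 in MNs skin. For the 7 members summed, the ratios to NC divided by that of the monocyte sum were 2.29 in PRP-MNs skin, 1.10 in PRP skin and 1.06 in MNs skin. Slfn4 is part of this family sum. Without it the family ratio to NC was 27.0 in PRP-MNs skin, 6.35 in PRP skin and 4.59 in MNs skin. The monocyte sum had ratios of 25.8 in PRP-MNs skin, 7.81 in PRP skin and 4.63 in MNs skin. The other sums lay lower in PRP-MNs skin, with ratios to NC of 8.24 for leukocytes, 6.64 for macrophages and 4.35 for neutrophils. Nearness to the family ratio thus held for the monocyte sum and not for these. The part of myeloid cell number in these differences was not tested.

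**Figure D5:**
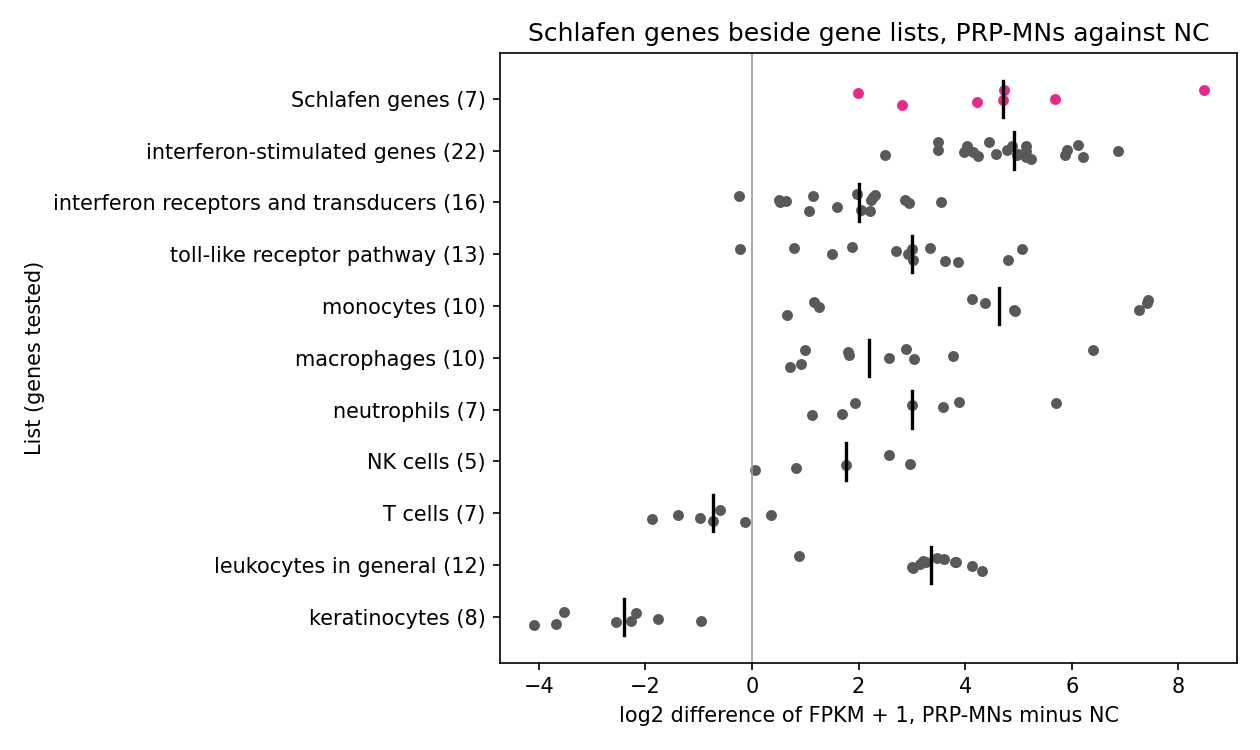
Log2 difference of FPKM + 1, PRP-MNs minus NC, of the Schlafen genes and of the genes of 10 lists that reached 1 FPKM in either library, 1 point per gene, with black bars at the medians. The Schlafen median of 4.71 lies beside those of interferon-stimulated genes (4.92) and monocyte genes (4.64), and the keratinocyte median lies at -2.40.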

How the data were processed

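RNA of skin was sequenced in 1 library per group, PRP-MNs, PRP, MNs and NC. A NEBNext Ultra kit and 1 μg of RNA were used, per the labels' protocols. Per the submitters' processing notes the build was GRCm38. The aligner, quantifier, annotation and strand setting are not given in the sources used here. In 1 table, the authors deposited FPKM values per gene with 1 column per library. Of 22036 Ensembl identifiers, 22022 matched GENCODE M21, which gave symbols, coordinates, transcript lengths and coding sequences. A further 3535 gene models had no Ensembl identifier.

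Differences were log2 ratios of FPKM + 1, taken over the whole table for genes that either library had at 1 FPKM or more, and at least 2-fold was counted. With 1 library per group there is no spread between replicates, and no test was run. Depth came from the step between low values of genes with 1 annotated transcript. In every library the best fitting depth was divided by 2, because even steps outnumbered odd ones by more than 2 to 1. In PRP-MNs, for example, there were 112 even and 44 odd steps. Odd steps remained, so depth and fragment numbers could be about 2-fold higher than given. At the step used, 25.2% to 28.0% of low values were whole fragment numbers within 0.02, against medians of 3.03% to 3.25% over other steps. For most genes no whole numbers came out, so no count test was run. Fragments of a member were its FPKM times its longest transcript and this depth, so they and their 95% intervals are approximate. On a transcript of 1 kb the floor of 3 fragments was 0.155 (NC) to 0.189 FPKM (PRP).

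The 7 members and all lists were chosen with earlier results of these data known. Members were named whatever their values. From each list up to 4 genes with the largest PRP-MNs against NC difference could be named, with up to 6 flanking genes and 5 nearest profiles per member. Flanking genes named outside this rule (Unc45b, Lig3, Rad51d, Nle1, Taf15, Mmp28, Ap2b1 and 1700020L24Rik) were chosen after their values were seen. The same holds for the list genes S100a8, S100a9, Ccr2, Itgam, Mrc1, F13a1, Plac8 and Csf1r. Promoters were those of RefSeq on GRCm38.p6. Coding sequences were aligned globally with Biopython 1.88. Calculations were tested on simulated data with Python 3.11.15. A total of 7 alternative settings were tried: other pseudocounts, other filters, rescaled libraries and centring.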

Additional observations from a re-analysis of the deposited data

How the results depend on the processing

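The counts of members at least 2-fold higher and the member medians in the 6 comparisons were recomputed under 7 other settings. All counts stayed within 1.5 times their value. The largest change was in MNs against NC, from 6 members to 4 with a pseudocount of 5 and with a filter at 5 FPKM. The medians moved by under 1.5-fold except with another pseudocount. With a pseudocount of 5 the median was 3.55 for PRP-MNs against NC and 1.14 for MNs against NC, and with 0.1 it was 2.69 for MNs against NC. Of single members, Slfn3 lost its 2-fold difference with a pseudocount of 5 in PRP against NC (0.37), MNs against NC (0.47), PRP-MNs against PRP (0.86) and PRP-MNs against MNs (0.77), and Slfn8 in MNs against NC (0.62), by construction, since both are low there. Slfn5, at -0.09 in PRP against MNs, stood at 0.01 when centred. With every library rescaled to 1 common sum, the median over all genes shifted by 0.14 for PRP-MNs against NC and by 0.18 for MNs against NC. The difference of the combined treatment from the sum of the single ones was recomputed under 4 settings chosen after seeing the data, and with pseudocounts of 0.1 and 5 it was 0.32 and 2.24 in Slfn4 and -0.88 and 0.66 in Slfn1. No paired analysis was possible because each group has 1 library, and no library could be left out. Depth limits Slfn3 most, at about 8 fragments in NC.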
